A study of Mus musculus with 14 samples.

Results

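The genes described here are 10 that megakaryocytes and platelets use for clotting: Pf4, Ppbp, Mmrn1 and Vwf, whose proteins are stored in platelet granules, Gp1bb, Gp5 and Gp9, which encode subunits of the GPIb-IX-V receptor, Itga2b and Itgb3, which encode the fibrinogen receptor, and Clec1b, which encodes the podoplanin receptor CLEC-2. They were chosen by name for their role, with earlier results of these data known. All 10 were found among the 38926 gene symbols of the LSK and MyePro count files and the 39179 Ensembl genes of the LT-HSC count files. The study deleted Dpy30, a core subunit of the complexes that methylate histone H3 at lysine 4, in mouse bone marrow and measured RNA in sorted cells, in 8 RNA-seq libraries among 14 samples. Control donors were Mx1-Cre; Dpy30F/+ and knockout (KO) donors Mx1-Cre; Dpy30F/-, so every group carried Mx1-Cre and 1 floxed allele, and the controls kept 1 wild-type allele.

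Donor marrow was mixed with C57Bl/6J competitor marrow and transplanted into irradiated recipients. Starting at week 7 after transplantation the recipients, of both groups, received 4 injections of 7.5 µg/g pIpC over 10 days, and marrow was taken 2 weeks after the last one. pIpC raises interferon, which drives Cre from the Mx1 promoter, so deletion in donor-derived cells was not limited to 1 cell type. The labels state a sort for donor cells only for the LT-HSC. Each LSK (lineage-negative, Sca-1+, Kit+) and MyePro (the labels' name for the myeloid progenitors, whose gate they do not give) library came from 2 to 3 pooled mice, with 1 library per genotype. Each LT-HSC (long-term haematopoietic stem cell) library came from 7 to 9 pooled mice of 1 of 2 transplants, with 1 control and 1 KO library in each, and its RNA was amplified before library preparation.

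Megakaryocytes arise from stem cells and from the progenitors they share with erythroid cells, and they shed platelets into the blood. The hormone thrombopoietin drives them, and the transcription factors GATA1, FLI1, RUNX1 and NF-E2 act on many of their genes. Several of these genes are also on in stem cells: Itga2b (CD41) appears early in haematopoiesis, and Vwf marks a platelet-biased part of the stem cell compartment. Vwf and Mmrn1 are made by endothelial cells as well.

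In RefSeq's GRCm38.p6 annotation, Ppbp (chromosome 5, 90768518 to 90770063) and Pf4 (chromosome 5, 90772435 to 90773383) are neighbours with 2371 bases between them. Mmrn1, Gp9, Clec1b and Vwf lie on chromosome 6, Gp1bb and Gp5 on chromosome 16, and Itga2b and Itgb3 on chromosome 11. Gp1bb overlaps Septin5 and Clec1b overlaps Clec12b, so reads there may be shared. Septin5 had 11 to 44 counts in the LSK and MyePro libraries and 36 to 273 in the LT-HSC libraries, and Clec12b had 0 or 1. RefSeq's promoter table held 8 of the 10 genes, and Itgb3 and Vwf were not among them. The 250 bases before the start site are shown for the 5 genes that, as described below, lay within 2-fold of control in LSK and past it in KO MyePro, and for Ppbp, the neighbour of Pf4 that was higher in both. These are Pf4 (chr5:90772185-90772434, plus strand), Gp1bb (chr16:18622404-18622653, minus strand), Gp5 (chr16:30310782-30311031, minus strand), Gp9 (chr6:87777820-87778069, plus strand), Itga2b (chr11:102469884-102470133, minus strand) and Ppbp (chr5:90768268-90768517, plus strand), each written 5′ to 3′ on the gene's strand. For Gp9 the table uses a start site inside the annotated span of the gene (chromosome 6, 87776131 to 87779786), so the stretch shown lies within that span. Capitals mark the letters of the GATA motif searched (AGATAA or TGATAA) and of the ETS motif (AGGAAG or CGGAAG), read on both strands.
Pf4: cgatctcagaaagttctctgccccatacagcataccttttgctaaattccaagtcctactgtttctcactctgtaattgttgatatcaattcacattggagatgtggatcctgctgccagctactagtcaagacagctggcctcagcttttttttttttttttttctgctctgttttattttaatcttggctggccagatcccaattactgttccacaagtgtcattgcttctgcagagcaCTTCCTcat
Gp1bb: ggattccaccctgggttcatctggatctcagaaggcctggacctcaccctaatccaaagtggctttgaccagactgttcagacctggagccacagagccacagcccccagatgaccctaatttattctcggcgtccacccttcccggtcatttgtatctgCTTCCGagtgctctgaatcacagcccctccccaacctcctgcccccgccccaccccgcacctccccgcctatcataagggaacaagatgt
Gp5: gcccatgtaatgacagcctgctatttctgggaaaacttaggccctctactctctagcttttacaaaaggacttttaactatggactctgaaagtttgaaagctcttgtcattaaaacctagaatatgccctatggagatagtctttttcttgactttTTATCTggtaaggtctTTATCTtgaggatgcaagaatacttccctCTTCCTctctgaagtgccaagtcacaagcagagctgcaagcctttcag
Gp9: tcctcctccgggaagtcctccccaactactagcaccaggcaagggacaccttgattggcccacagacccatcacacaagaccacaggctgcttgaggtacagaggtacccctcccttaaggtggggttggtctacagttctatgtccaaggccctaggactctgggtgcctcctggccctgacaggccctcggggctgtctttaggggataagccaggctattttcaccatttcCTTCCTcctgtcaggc
Itga2b: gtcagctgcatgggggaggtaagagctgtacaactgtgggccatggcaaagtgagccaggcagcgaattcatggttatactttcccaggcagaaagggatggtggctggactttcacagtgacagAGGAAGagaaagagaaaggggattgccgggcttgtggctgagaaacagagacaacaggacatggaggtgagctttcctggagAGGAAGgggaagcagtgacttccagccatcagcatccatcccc
Ppbp: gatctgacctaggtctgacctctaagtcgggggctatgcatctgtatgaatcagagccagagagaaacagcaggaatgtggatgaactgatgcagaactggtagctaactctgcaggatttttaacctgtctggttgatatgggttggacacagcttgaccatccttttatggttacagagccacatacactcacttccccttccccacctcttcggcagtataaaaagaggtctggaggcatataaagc

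The ETS letters, which FLI1 and its relatives bind, were in all 5 promoters of the first group. They lay at -9 in Pf4, -90 in Gp1bb, -48 in Gp5, -16 in Gp9, and -125 and -43 in Itga2b, counting the first transcribed base as 0. Gp1bb held them once more at 20, past the stretch shown. They were in none of the other 3 promoters in the table (Ppbp, Mmrn1 and Clec1b), a split that was made after the values were seen and has no test. In the window of 300 bases that runs from 250 before to 50 after the start, 5 of the 8 members thus held the ETS letters, against 46.5% of 32851 promoters in the table. The GATA letters were in 4 of 8 (Pf4 past its start, Mmrn1, Gp5 and Clec1b), against 18.6%. RUNX letters (TGTGGT or TGCGGT) were in 1 of 8, Gp9, against 22.4%, and NF-E2 letters (TGAGTCA or TGACTCA) in 0 of 8, against 5.2%. A match describes the letters alone.

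The libraries held 6130320 to 20820762 gene counts in LSK and MyePro and 38060087 to 85499797 in LT-HSC. Levels are given as CPM (counts of the gene per 1000000 gene counts) scaled by edgeR's TMM factors, and ratios as log2 after adding a prior count of 2. In LSK and MyePro, with 1 library per group, there is no test of the genotype: the 95% intervals printed there are exact and cover counting error only. Dpy30 was at 78.0 CPM in control LSK against 42.4 in KO LSK, and at 113 and 51.9 in MyePro. In LT-HSC it was at 12.9 and 8.43 CPM in the controls, against 14.1 and 4.67 in the libraries labelled KO 1 and 2. At this scaling the library labelled KO 1 did not have less Dpy30 than its control. Before TMM scaling (factors 0.580 in KO 1 and 1.20 in control 1) its share was lower, 699 of 85499797 gene counts against 599 of 38473360. The check of KO 1 thus depends on the scaling, and directions drawn from that library rest on its label. Both libraries labelled KO also lacked counts of Kdm5d on the Y chromosome (0 and 0, against 1380 and 831 in the controls), so genotype and sex of the donors cannot be told apart in LT-HSC. Xist, which female cells express, was at 239 and 150 CPM in the control LT-HSC and 2165 and 1504 in KO. The control libraries therefore held Xist as well as Y-linked reads. Ly6a, which encodes Sca-1, was higher in LSK than in MyePro in both genotypes, and Mpo was higher in MyePro, as the labels have it.

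Of the comparisons between genotypes, the one in MyePro cells gave the largest median ratio. There all 10 genes read higher in the KO library, 9 of them by at least 2-fold, where 11.3% of the 10245 genes that averaged 5 CPM or more were higher by that much and 7.91% lower. The members' median log2 ratio was 3.78, against -0.08 for all those genes. Together the 10 genes took 0.0230% of gene counts in control MyePro and 0.211% in KO MyePro. In LSK cells the 10 genes split, with 4 at least 2-fold higher in KO, 1 lower and 5 within 2-fold, against 4.98% of 10311 genes higher and 5.38% lower. Their median there was 0.41, against -0.04 for all genes. In these pooled cells, more megakaryocytic cells and more of this RNA per cell cannot be told apart.

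**Figure D1:**
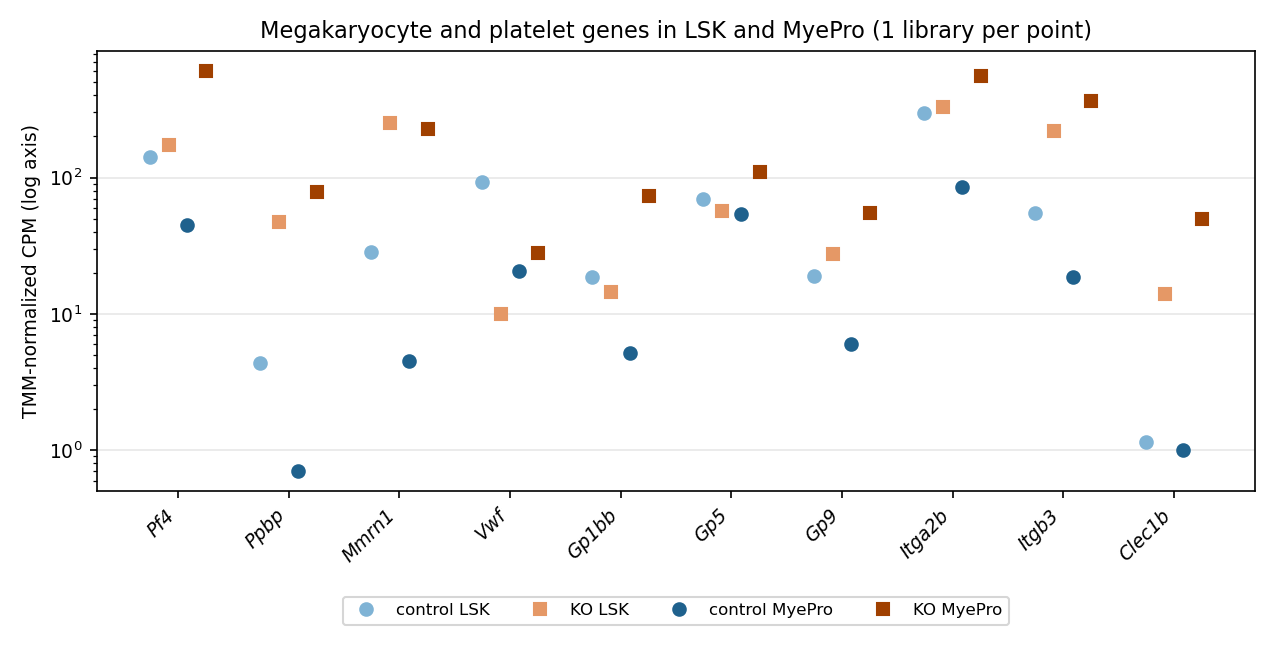
Level of each of the 10 genes in the 4 LSK and MyePro libraries, in CPM on a log axis, 1 point per library. Control MyePro is the lowest of the 4 for every gene but Vwf, which is lowest in KO LSK at 9.98 CPM.

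Among the granule proteins, the chemokine gene Pf4 (platelet factor 4, which binds heparin) stood at 142 CPM in control LSK, 172 in KO LSK, 44.5 in control MyePro and 606 in KO MyePro. Its KO-to-control log2 ratio was 0.28 (0.17 to 0.38) in LSK and 3.76 (3.67 to 3.87) in MyePro. Ppbp, the precursor of the neutrophil-attracting chemokine CXCL7, stood at 4.35, 47.5, 0.701 and 78.5 CPM in the same order of libraries. These rest on 64, 314, 14 and 891 counts, so Ppbp was higher in KO in both populations, by 3.41 (3.06 to 3.86) in LSK and by 6.53 (6.05 to 7.68) in MyePro on the log2 scale. The neighbours Pf4 and Ppbp therefore differed in LSK, where Pf4 lay within 2-fold of control.

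Mmrn1 encodes multimerin 1, which holds factor V in the granules. It stood at 28.4 CPM in control LSK, 251 in KO LSK, 4.51 in control MyePro and 227 in KO MyePro. The KO library was higher by 3.14 (2.99 to 3.30) on the log2 scale in LSK and by 5.61 (5.35 to 5.97) in MyePro, so its KO levels were alike in both populations and far above both controls. Vwf, the large adhesion protein that tethers platelets to collagen through GPIb, went the other way in LSK. It stood at 92.8 CPM in control LSK, 9.98 in KO LSK, 20.8 in control MyePro and 27.8 in KO MyePro. The log2 ratio was -3.20 (-3.60 to -2.86) in LSK and 0.41 (0.20 to 0.63) in MyePro, which makes Vwf the member lower by 2-fold in LSK and the member that stayed within 2-fold in MyePro.

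Of the GPIb-IX-V receptor, which binds Vwf under flow, the 3 subunit genes among the 10 lay within 2-fold of control in LSK and past 2-fold higher in KO MyePro. Gp1bb, the subunit linked to GPIbα, stood at 18.7 CPM in control LSK, 14.5 in KO LSK, 5.16 in control MyePro and 73.7 in KO MyePro. Gp9, the small subunit the complex needs to reach the surface, stood at 18.9, 27.7, 6.06 and 55.0 CPM. Gp5, the subunit that thrombin cleaves, stood at 69.8, 56.9, 53.8 and 109 CPM. For all 3 the highest of the 4 libraries was KO MyePro. In LSK the log2 ratios were -0.36 (-0.71 to -0.02), 0.55 (0.28 to 0.83) and -0.29 (-0.47 to -0.12) for Gp1bb, Gp9 and Gp5. In MyePro they were 3.80 (3.54 to 4.15), 3.15 (2.90 to 3.47) and 1.02 (0.90 to 1.14), so the subunits of 1 receptor did not have 1 ratio, and Gp5 lay just past 2-fold with an interval that reaches below it. Gp1ba, which encodes the Vwf-binding subunit and belongs to the wider receptor list, was named after its values were seen. It was at 24.1 CPM in control LSK against 47.0 in KO LSK (0.96 on the log2 scale) and at 13.6 against 75.9 in MyePro (2.46).

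Integrin αIIbβ3 joins platelets to each other through fibrinogen. Its α gene Itga2b stood at 299 CPM in control LSK, 329 in KO LSK, 85.2 in control MyePro and 552 in KO MyePro. Its β gene Itgb3, whose product also pairs with the αv integrin, stood at 54.9, 220, 18.6 and 363 CPM. The partners differed in LSK, where the log2 ratio was 0.14 (0.06 to 0.21) for Itga2b and 2.00 (1.88 to 2.13) for Itgb3. In MyePro both were higher in KO, by 2.69 (2.62 to 2.77) and 4.28 (4.13 to 4.44). Clec1b, whose product CLEC-2 also keeps blood and lymph vessels apart during development, had 17 counts in control LSK, 93 in KO LSK, 20 in control MyePro and 564 in KO MyePro. These are 1.15, 14.1, 1.00 and 49.7 CPM, and the log2 ratios were 3.44 (2.85 to 4.45) in LSK and 5.43 (4.99 to 6.36) in MyePro. The 4 genes past 2-fold higher in KO LSK were therefore Ppbp, Mmrn1, Itgb3 and Clec1b.

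**Figure D2:**
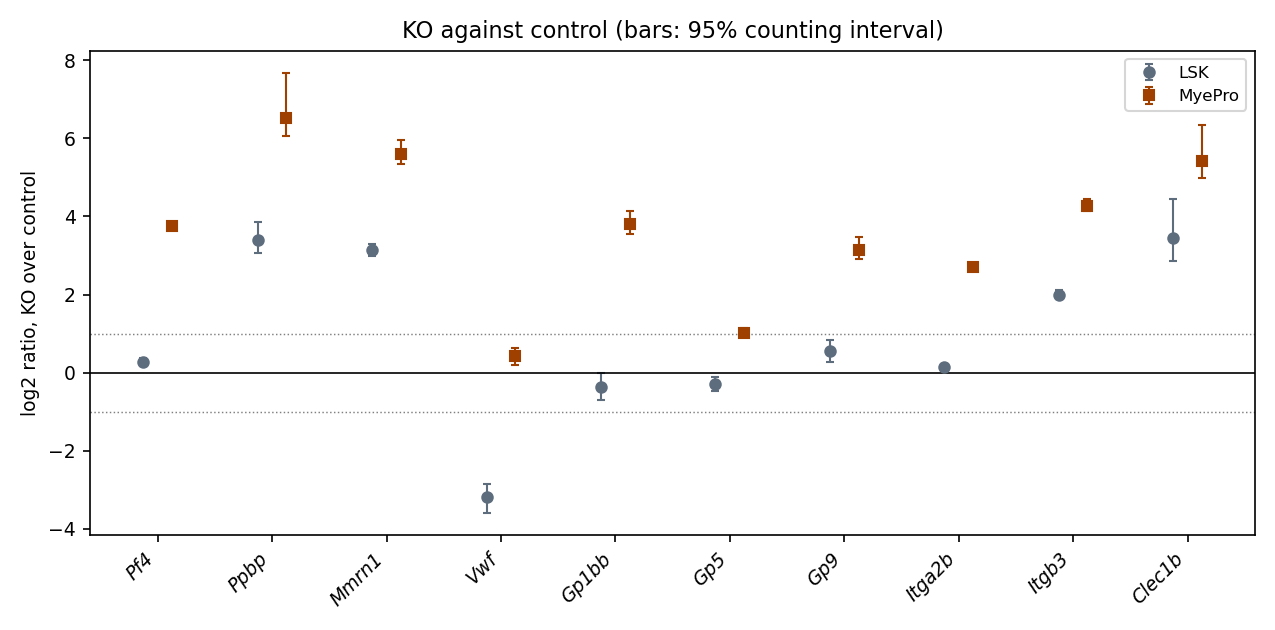
KO-to-control log2 ratio of each gene in LSK and in MyePro, with 95% counting intervals as bars and 1 library per group. Every gene lies higher in MyePro than in LSK, and Vwf in LSK is the only point under the lower 2-fold line, at -3.20.

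The 2 populations can also be set against each other within a genotype, although each comparison shares its libraries with those above. In the controls, all 10 genes read lower in MyePro than in LSK. Of the 8 that averaged 5 CPM or more, 7 were at least 2-fold lower, where 7.21% of 10059 such genes were at least 2-fold lower and 3.01% higher. The median log2 ratio of all 10 was -1.74, against 0.05 for all genes. Mmrn1 at -2.61, Ppbp at -2.40 and Vwf at -2.15 were furthest down, and Gp5 at -0.38 and Clec1b at -0.18 (-1.21 to 0.82) were within 2-fold. Ppbp and Clec1b averaged under 5 CPM in these libraries, and the direction of Clec1b turned to 0.03 when every library was thinned to the depth of the shallowest.

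In KO cells, 9 of the 10 genes read higher in MyePro than in LSK and 4 were at least 2-fold higher, Gp1bb (2.33 on the log2 scale), Pf4 (1.81), Clec1b (1.81) and Vwf (1.46), where 3.16% of 10366 genes were at least 2-fold higher and 1.53% lower. Mmrn1 lay at -0.15 and the other 5 between 0.72 and 0.99. The median was 0.96, against 0.00 for all genes. The KO change minus the control change was at least 1 on the log2 scale for all 10 genes. It ran from 1.31 for Gp5 to 4.16 for Gp1bb, with a median of 2.58. Over 10318 genes, 7.97% reached that size and the median was -0.03. Gp1bb, Vwf (3.61) and Pf4 (3.49) went from at least 2-fold down in control to at least 2-fold up in KO. These differences rest on 1 library per group and were not tested.

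**Figure D3:**
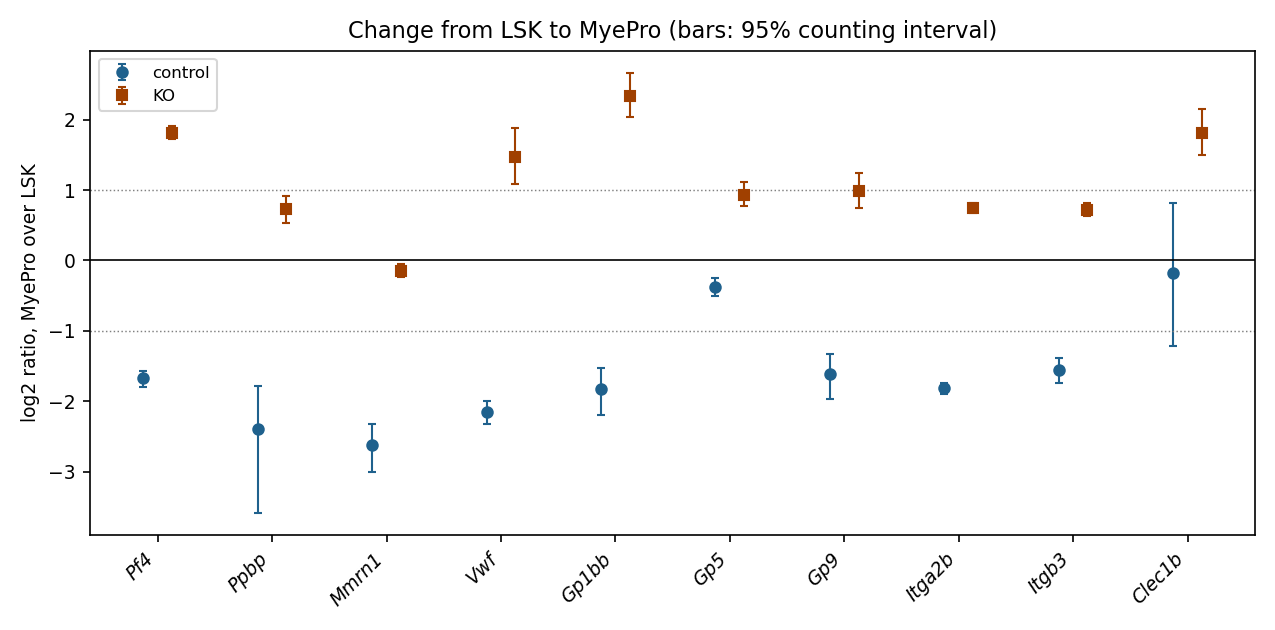
MyePro-to-LSK log2 ratio of each gene, in control and in KO, with 95% counting intervals as bars and 1 library per group. The control points lie below 0 for all 10 genes, and the KO points above 0 for all but Mmrn1.

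Other genes of the megakaryocyte programme were taken in 4 lists. Over all genes averaging 5 CPM or more in MyePro, 11.3% were at least 2-fold higher in KO and 7.91% lower. Of 16 other platelet receptor and signalling genes that averaged 5 CPM or more in MyePro, 12 were at least 2-fold higher in KO and 0 lower, with a median log2 ratio of 2.53. Plek, which encodes the protein kinase C substrate pleckstrin, went from 77.0 CPM in control to 771 in KO MyePro (3.32). The tetraspanin gene Cd9 stood at 66.5 and 410 (2.62), while Fermt3, whose product activates integrins, stood at 410 and 487 (0.25). Of 15 other granule genes, 9 were higher and 1 lower, the transglutaminase gene F13a1 at 369 against 149 CPM (-1.31), with a median of 1.95. The proteoglycan gene Srgn (1083 and 1574 CPM, 0.54) and the fusion protein gene Vamp8 (175 and 131 CPM, -0.42) were within 2-fold.

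The lists for the cytoskeleton and for regulators had smaller medians. Of 10 cytoskeletal genes 4 were higher in KO MyePro, Tuba8, Mylk, Gng11 and Rab38, and 1 was lower, Pdlim1 (115 against 25.2 CPM), with a median of 0.76. The tubulin gene Tubb1, which megakaryocytes use to build proplatelets, was near 0 in all 4 libraries, at 0.200 to 1.02 CPM, and was named after its values were seen. Of 13 transcription factors and their partners, called regulators here, 4 were higher (Fli1, Meis1, Mef2c and Ets1) and 1 lower (Gfi1b), with a median of -0.28. Nfe2 (178 and 331 CPM, 0.89), the co-regulator gene Zfpm1 (297 and 241 CPM, -0.30) and Tal1 (235 and 147 CPM, -0.67) were within 2-fold. Fli1 was at 88.9 CPM in control against 265 in KO MyePro, and Gfi1b at 192 and 52.2. Gata1, the factor that erythroid cells use too, was named after its values were seen. It was at 207 CPM in control against 107 in KO MyePro, below its control while all 10 genes were above theirs.

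In LSK, 4.98% of all genes averaging 5 CPM or more were at least 2-fold higher in KO and 5.38% lower. Fewer genes of these lists passed 2-fold in LSK than in MyePro: 2 higher and 2 lower of 15 receptor genes, 3 and 2 of 15 granule genes, 3 and 1 of 10 cytoskeletal genes, and 0 and 1 of 13 regulators. The receptor genes were Plek (251 CPM in control and 634 in KO LSK) and the scavenger receptor gene Cd36 upward, and Selp and Tbxa2r downward. The granule genes were Sparc, Slc35d3 and Rab27b upward, and Timp3 and Stxbp2 downward. Tuba8, Mylk and Gng11 were higher and Pdlim1 lower there, as in MyePro. The regulator lower in KO LSK was Gata1 (102 CPM in control and 47.5 in KO). The lists' medians in LSK were -0.04, 0.29, 0.14 and -0.56, in that order.

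**Figure D4:**
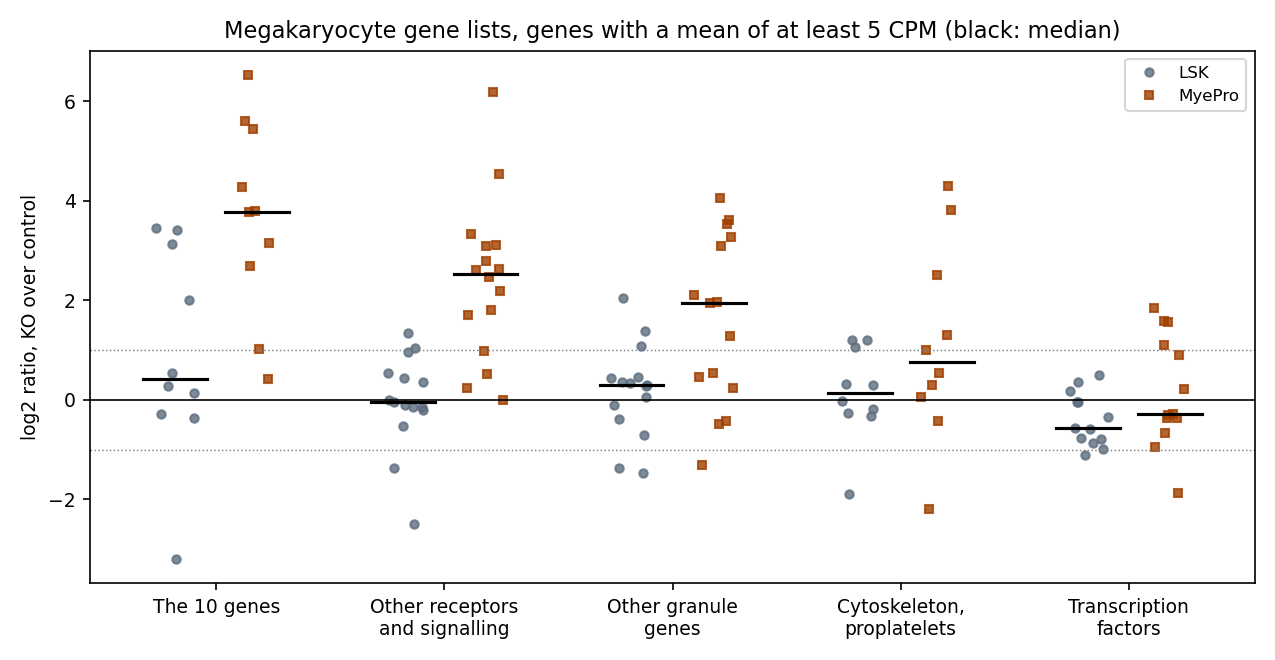
KO-to-control log2 ratio of each gene averaging 5 CPM or more, for the 10 genes and the 4 wider lists, in LSK and MyePro, with the median as a black bar and 2-fold as dotted lines. In MyePro the medians run from 3.78 for the 10 genes to -0.28 for the regulators, and in LSK from 0.41 to -0.56.

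Markers of other cells differed between the same libraries. In MyePro the summed level of 10 neutrophil markers was 39.9 CPM in control and 771 in KO, that of 8 mast cell and basophil markers 526 and 1250, that of 13 erythroid markers 3269 and 395, and that of 10 myeloid progenitor markers 11303 and 6832. Of those that averaged 5 CPM or more, 4 of 4 neutrophil markers were at least 2-fold higher in KO, 3 of 6 mast cell and basophil markers were higher and 1 lower, and 7 of 10 erythroid markers were lower and 3 higher. Of 10 macrophage and dendritic cell markers, which summed to 253 and 456 CPM, 6 were higher and 3 lower. Of the 10 myeloid progenitor markers, 3 were higher (Ms4a3, Fcgr3 and Cebpa) and 3 lower (Mpo, Prtn3 and Irf8), with a median log2 ratio of -0.08. Mpo, the most abundant of them, was at 6400 CPM in control and 2124 in KO MyePro. In LSK the neutrophil markers summed to 34.4 CPM in control and 306 in KO, the mast cell and basophil markers to 314 and 794, the erythroid markers to 742 and 65.6, and the macrophage and dendritic cell markers to 963 and 340. Of 9 macrophage and dendritic cell markers averaging 5 CPM or more in LSK, 4 were at least 2-fold higher in KO and 3 lower. Their median log2 ratio was 0.94, and the 3 lower ones were the most abundant, Cd74, H2-Ab1 and H2-Aa. The 10 stem cell and LSK markers summed to 1712 and 1433 CPM there, and of the 9 that averaged 5 CPM or more 0 were past 2-fold upward and 5 downward, Flt3, Slamf1, Mecom, Mllt3 and Hlf (194 CPM in control against 45.2 in KO). Of 6 mast cell and basophil markers averaging 5 CPM or more in LSK, 4 were at least 2-fold higher in KO and 2 lower, Prss34 (107 against 6.96 CPM) and Ms4a2. The 12 T, B and NK cell markers summed to 202 CPM in control and 483 in KO LSK, and to 198 and 544 in MyePro. Most of that was Nkg7, at 197 and 451 CPM in LSK and 197 and 517 in MyePro. The part of these cells in the platelet gene results was not tested.

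Endothelial markers bear on Vwf and Mmrn1, which endothelial cells also make. The 12 markers summed to 470 CPM in control and 484 in KO LSK and to 298 and 437 in MyePro, with Eng and Pecam1 adding the most. Of the 8 that averaged 5 CPM or more, Kdr and Plvap were past 2-fold upward in KO LSK and Egfl7 downward, and in KO MyePro 6 were past it upward and 1, Egfl7, downward, with a median log2 ratio of 1.69. Eng was at 155 CPM in control against 90.5 in KO MyePro, Pecam1 at 78.7 against 161, and Tie1 at 11.0 against 52.3. Named after their values were seen, Kdr was at 1.05 against 26.8 CPM in MyePro and the endothelial cadherin gene Cdh5 at 0.200 against 2.20. Lyve1 was at 0 in 3 of the 4 libraries. The part of endothelial cells in these results was not tested. KO MyePro also had a larger share of reads with no gene (5.86% against 2.40%), and in LSK the control library had the larger share (6.25% against 3.83%).

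Over the 3 ratios (KO to control in each population, and control MyePro to LSK), the gene nearest to the members' median among 10308 genes was the stress-response factor gene Atf3, at a Euclidean distance of 0.42. It was followed by the protease gene Adamts1 (0.45), Tlr13 (0.48), a sensor of bacterial RNA, Cd5l (0.56), which macrophages secrete, and the glycolytic gene Aldoc (0.57). Atf3 stood at 5.30 and 7.11 CPM in LSK and at 1.35 and 15.4 CPM in MyePro, the control first. Among the 10 members, Pf4 lay nearest to their median, at 0.15, and Vwf farthest, at 4.95.

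In the LT-HSC, which have 2 libraries per group, none of the 10 genes passed the test. All 10 were among the 12844 genes tested, of which 2 (0.0156%) passed, the Y-linked genes Kdm5d and Eif2s3y, both lower in KO, and the adjusted p was 0.999 for each member in edgeR's quasi-likelihood test with Benjamini-Hochberg adjustment. None was under an unadjusted p of 0.05 either, where 130 genes of the whole table were higher and 164 lower, and DESeq2 and limma-voom called no member. The log2 fold changes ran from -0.65 ± 0.527 (SE, n = 2) for Gp5 to 1.37 ± 1.44 for Clec1b, and the standard errors of the 10 ran from 0.303 for Itga2b to 1.44 for Clec1b. The value of Clec1b was 0.62 without control 1, 2.32 without KO 1 and 0.38 with the replicate block, and that of Gp5 ran from -0.90 to -0.45 when 1 library was left out. Replicates were separate pools from separate transplants. No member had both KO libraries above both controls (13.8% of genes did), and 1, Gp5, had both below (13.9% did), at 7.34 and 6.79 CPM in the controls and 3.79 and 5.18 in the libraries labelled KO.

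Among the granule genes, Pf4 stood at 62.5 and 65.5 CPM in control LT-HSC of transplants 1 and 2, and at 36.3 and 86.6 in the libraries labelled KO. Mmrn1 was at 78.4 and 115 CPM in control, against 61.3 and 228 in KO, and Ppbp at 2.05 and 7.19 against 0.907 and 10.9. In these 3 the KO libraries lie on either side of both controls. Vwf was at 82.0 and 17.1 CPM in control, against 51.8 and 30.2 in KO, so both KO libraries lay between the controls.

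Of the receptors, Gp9 was at 7.99 and 6.45 CPM in control and 6.51 and 14.2 in KO, and Gp1bb at 2.65 and 2.22 against 2.14 and 3.85. The integrin gene Itga2b stood at 35.6 and 29.6 CPM against 22.7 and 30.1. Its partner Itgb3 was at 38.0 and 131 CPM in control, against 18.9 and 129 in KO, so both libraries of transplant 2 lay above both of transplant 1. Clec1b was at 0.604 and 3.23 CPM in control, against 0.302 and 9.60 in KO, with the lowest value in transplant 1 and the highest in transplant 2 both in KO.

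Set within each transplant, all 10 genes read lower in KO in transplant 1, with a median log2 difference of -0.72. In transplant 2, 8 of 10 read higher in KO, with a median of 0.69, and the 2 that did not were Gp5 (-0.39) and Itgb3 (-0.02). Over all genes tested, 49.9% read lower in transplant 1 and 50.4% higher in transplant 2, with medians of 0.00 and 0.01. With size factors from the ERCC spike-ins all 10 were higher in transplant 2, with library totals 9, and in transplant 1 all 10 stayed lower under both, scalings that were compared after the values were seen. The 2 transplants give 1 pair each, so this difference was not tested. KO 2 was above KO 1 for 9 of the 10 genes, with a median difference of 1.19, and control 2 above control 1 for 5 of 10 (-0.02). Over all genes tested these shares were 50.1% and 50.3%, with medians of 0.00 and 0.01. Other measures differed between the same libraries: the TMM factor was 0.580 in KO 1 and 1.14 to 1.26 in the others, 8 mast cell and basophil markers summed to 6.32 and 63.3 CPM in the controls and 0.685 and 54.4 in KO, and 10 myeloid progenitor markers to 92.4, 376, 98.2 and 281. Most of the mast cell and basophil sum was Cpa3, at 2.61 and 56.3 CPM in the controls and 0.685 and 45.1 in KO. The other 7 of those markers were at 0 in KO 1. The part of these measures in the transplant difference was not tested.

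**Figure D5:**
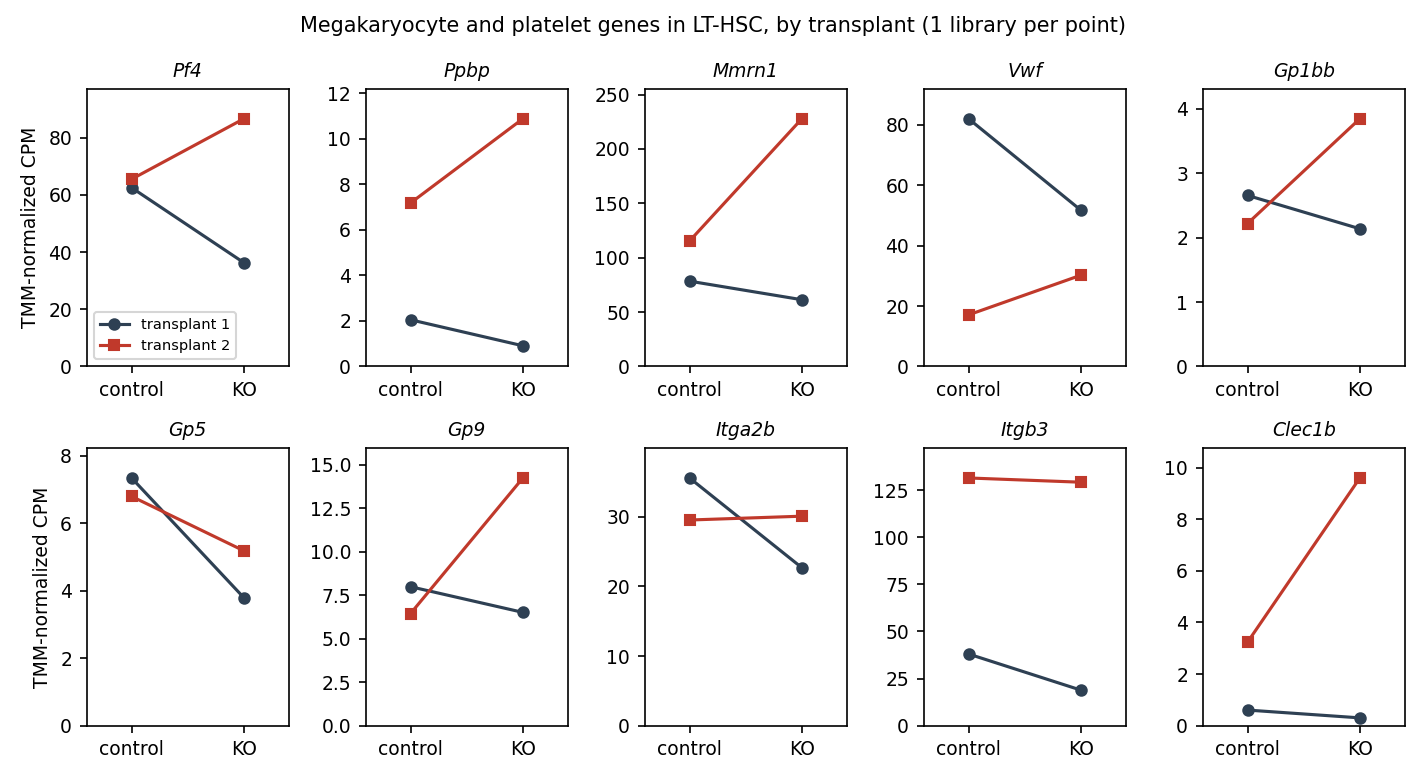
CPM of each gene in the 4 LT-HSC libraries, 1 point per library, with a line joining the control and KO library of each transplant. The lines of transplant 1 go down for all 10 genes, and those of transplant 2 go up for all but Gp5 and Itgb3.

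The wider lists had no call in LT-HSC either, with 0 of 18 receptor genes, 0 of 16 granule genes, 0 of 10 cytoskeletal genes and 0 of 13 regulators past an adjusted p of 0.05 in the edgeR fit, and 0, 1, 0 and 1 under an unadjusted p of 0.05. Their median log2 fold changes were -0.02, 0.12, -0.14 and -0.08. Ptgs1, which encodes the cyclooxygenase that makes thromboxane precursors, was at 70.1 and 80.7 CPM in control and 50.1 and 55.9 in KO (-0.51 ± 0.252), and Plek at 90.2 and 261 against 52.3 and 300 (0.01 ± 0.788). Of the regulators, Meis1 stood at 173 and 138 CPM against 205 and 144 (0.16 ± 0.289). Nbeal2, which encodes a protein that alpha granules need to form, was at 76.5 and 92.4 CPM in control and 47.3 and 58.8 in KO (-0.67 ± 0.267). It was the granule gene under an unadjusted p of 0.05, and the regulator was Gfi1b, at 36.5 and 28.4 CPM in control and 21.5 and 16.1 in KO.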

How the data were processed

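The deposited values are raw gene counts, 1 file per RNA library, and per the submitters' processing notes the authors' tools included TopHat2 and HTSeq 0.6.0 with mm10. How each tool was set is not given in the sources used here. Per the labels' protocols polyA RNA was selected, and LT-HSC RNA was amplified first, which can distort levels. Rows that name no gene stayed out of the library sizes and tests, among them reads with no feature, at 2.40% to 26.0% of all counted reads in a file. The members and lists were chosen with earlier results of these data known.

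Ratios between LSK and MyePro libraries used edgeR 4.0.16 TMM factors from genes averaging 1 CPM or more, a prior count of 2 and exact 95% counting intervals. A fold of 2 was counted over genes averaging 5 CPM or more. LT-HSC genes with at least 1 CPM in 2 libraries were fitted with edgeR's quasi-likelihood test (R 4.3.3). The standard errors printed are the absolute log2 fold change divided by the square root of that test's F statistic. They are not the spread of the replicates alone. The code was also run on simulated counts with a shared composition and fixed dispersions. These settings differ from the real libraries, so that run does not show the power of the test here. The named genes were the 10 members, Dpy30, the 3 most abundant genes of each list, genes behind a count of 5 or fewer, and the 5 nearest genes. In the regulator list 2 genes are not reported here, and its counts and medians leave them out. Ensembl IDs were matched to symbols for 96.0% of LT-HSC rows. The labels give each transplant 1 control and 1 KO library, so transplant numbers pair the libraries. Deviations of control 1 and KO 1 from their group means correlated at r = 0.29 over genes. Alternatives were library totals, RLE and ERCC size factors, filters, a replicate block, DESeq2 1.42.0, limma-voom 3.58.1, thinned counts, other folds and leaving out each LT-HSC library. The scalings within each transplant were added after the values were seen.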

Additional observations from a re-analysis of the deposited data

Results flagged for a closer look

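For Pf4, Vwf and Gp1bb the change from LSK to MyePro went past 2-fold in opposite directions in the 2 genotypes. The KO change minus the control change on the log2 scale was 3.49 for Pf4, 3.61 for Vwf and 4.16 for Gp1bb. With 1 library per group the difference was not tested.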

How the results depend on the processing

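In LT-HSC no member was called under any alternative. The number of genes of the whole table past an adjusted p of 0.05 was 2, and became 4 with library totals, 1 with ERCC size factors, 4 with no filter, 0 with a minimum of 0.5 CPM, 4 with the replicate block, 14 with DESeq2 and 1 with limma-voom, and ran from 0 to 5 when 1 library was left out (0 without either control, 3 without KO 1, 5 without KO 2). The sign of the uncalled log2 fold change turned for Pf4 (0.29) and Itgb3 (0.37) with ERCC size factors, for Ppbp with the replicate block (-0.26) and limma-voom (-0.074), and for Vwf with the replicate block (0.074) and limma-voom (0.032). The cause was not tested. The replicate block changed no call of a member. Leaving out 1 library at a time gave -0.82 to 0.44 for Pf4, -2.35 to 1.54 for Ppbp, -0.66 to 1.23 for Mmrn1, -0.99 to 1.27 for Vwf, -0.19 to 0.66 for Gp1bb, -0.15 to 0.98 for Gp9 and -2.17 to 0.98 for Itgb3. The lone library left in a group was then assumed to vary like the others. Clec1b gave 0.62 without control 1 and 2.32 without KO 1, and missed the filter without control 2 or KO 2. In LSK and MyePro the members' counts past 2-fold stayed within 1.5 times, and 199 of 200 ratios under other settings kept their sign, the exception being Clec1b in the controls. Library totals moved the all-gene median from -0.04 to 0.09 in LSK and from 0.00 to -0.13 in KO MyePro against LSK. Depth and 1 library per group limit the LSK and MyePro comparisons, and Ppbp and Clec1b most, with 14 to 20 counts in the lowest libraries.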
